A study of Homo sapiens with 2 samples.

Results

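The guanylate-binding proteins are a family of interferon-induced GTPases, and their 7 human genes are GBP1 to GBP7. All 7 were picked by gene symbol from the 36601 genes of the feature list. The rule uses no measured value, but the family was chosen with earlier results of these data known. Their transcripts were counted in single-cell libraries of colon organoids in work whose title describes a model of ulcerative colitis. The organoids were differentiated from human induced pluripotent stem cells (iPSC) of the established line 1383D6. The untreated library is called CNT. In the other library, 3CK, the culture had been exposed for 8 days to IFN-γ, TNF-α and IL-1β, at concentrations not stated in the labels. Both came from the same differentiation scheme: Activin A with Y-27632, then FGF2, then embedding in Matrigel with EGF, forskolin, PD98059 and the DNA demethylating agent 5-Aza-2'-Deoxycytidine, in a list that may be incomplete. Each group was 1 library from 1 cell line, so the differences below have no replicate check and no test was possible. Every interval is a 95% interval that covers counting error only.

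Guanylate-binding proteins are large GTPases related to the dynamins and belong to the most strongly IFN-γ-induced genes known in many human cells. GBP1 binds lipopolysaccharide on cytosolic bacteria and assembles a coat there, to which GBP2, GBP3 and GBP4 are recruited together with caspase-4, the sensor that opens gasdermin D pores in pyroptosis. GBP1, GBP2 and GBP5 end in a CaaX box and are prenylated, which anchors them to membranes, and GBP2 and GBP5 also restrain furin, the protease that matures viral envelope proteins. In the gut, epithelial cells use this system against invasive bacteria.

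The CNT matrix held 3257 barcodes and the 3CK matrix 1641, and they shared 0 barcodes. Filtering kept 2487 and 1398 cells with 101831571 and 91860414 unique molecular identifiers (UMIs), at medians of 28911 and 62746 UMIs per cell. In these sums, scaled to CPM (UMIs per 1e6 UMIs of the library), 3 UMIs amount to 0.0295 in CNT and 0.0327 in 3CK. The samples are labelled as colon epithelial cells, and the epithelial genes EPCAM (830 and 744 CPM) and CDX2 (67.1 and 69.5 CPM) were present, but so were collagen cells and hepatic transcripts, with 49096 and 15303 CPM of TTR. The epithelial range was therefore taken as cells with EPCAM at 2 or more UMIs per 10000 (1660 CNT and 1016 3CK cells). The mesenchymal range was taken as cells with COL1A1, COL1A2 and COL3A1 summing to 5 or more per 10000 and EPCAM under 1 (574 and 124 cells). Both are ranges of expression, not cell types. Near their limits lay 88 CNT and 71 3CK epithelial cells with EPCAM from 2 to 3, and 53 and 38 mesenchymal cells with collagens from 5 to 10, and 497 CNT epithelial cells against 49 in 3CK carried collagen UMIs at 5 or more per 10000.

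Over all kept cells the 7 genes together stood at 42.4 CPM in CNT (4314 UMIs) and 1263 CPM in 3CK (116021 UMIs), 29.8-fold higher in 3CK (log2 ratio 4.90, 4.85 to 4.94). All 7 members were at least 2-fold higher in 3CK and 6 were at least 8-fold higher. Of the 17523 genes that reached 1 CPM in either library, 6.96% were at least 2-fold higher in 3CK and 1.5% at least 8-fold. The median log2 ratio was 4.89 over the members and -0.05 over those genes. GBP5 had the 7th highest ratio of the 17523 genes, and GBP3, the lowest member, the 499th.

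GBP1, the coat initiator, had 834 UMIs in CNT and 41832 in 3CK. This is 8.19 CPM (7.64 to 8.77) against 455 CPM (451 to 460), a log2 ratio of 5.80 (5.70 to 5.90). In 3CK it was the 312th most abundant of 30521 genes seen, and in CNT the 10430th of 31257.

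GBP2, a prenylated coat partner and furin inhibitor, had 1070 UMIs in CNT and 10352 in 3CK. Its level was 10.5 CPM (9.89 to 11.2) against 113 CPM (111 to 115), a log2 ratio of 3.42 (3.33 to 3.52). GBP3, a further coat partner, was the most abundant member in CNT and had the smallest ratio. It had 1906 UMIs in CNT and 7009 in 3CK, 18.7 CPM (17.9 to 19.6) against 76.3 CPM (74.5 to 78.1), a log2 ratio of 2.03 (1.95 to 2.10). GBP4, another coat partner, had 363 and 8867 UMIs, 3.56 CPM (3.21 to 3.95) against 96.5 CPM (94.5 to 98.6), a log2 ratio of 4.76 (4.61 to 4.91).

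GBP5, the Golgi-associated furin inhibitor, had 108 UMIs in CNT and 46839 in 3CK. At 1.06 CPM (0.870 to 1.28) against 510 CPM (505 to 515), its log2 ratio of 8.91 (8.64 to 9.20) was the highest of the family. GBP5 went from the fifth most abundant member in CNT to the most abundant in 3CK.

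GBP6 and GBP7, the least studied members, were rare in both libraries. GBP6 had 18 UMIs in CNT and 721 in 3CK, 0.177 CPM (0.105 to 0.279) against 7.85 CPM (7.29 to 8.44), a log2 ratio of 5.47 (4.80 to 6.24). GBP7 had 15 and 401 UMIs, 0.147 CPM (0.0824 to 0.243) against 4.37 CPM (3.95 to 4.81), a log2 ratio of 4.89 (4.15 to 5.74). Both lay above the level of 3 UMIs in CNT, and their CNT intervals overlapped each other.

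The chemistry tags each molecule at its 3′ end, so levels of different members were compared as UMIs without division by transcript length. In CNT the order was GBP3, GBP2, GBP1, GBP4, GBP5, GBP6 and GBP7, and of neighbouring members only GBP6 and GBP7 had overlapping intervals. In 3CK it was GBP5, GBP1, GBP2, GBP4, GBP3, GBP6 and GBP7, with no overlap between neighbours.

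All 7 genes lie within 381 kb of chromosome 1 (GRCh38, GENCODE). GBP3 spans chr1:89006679-89022894, GBP1 chr1:89051882-89065360, GBP2 chr1:89106132-89150456, GBP7 chr1:89131742-89176009, GBP4 chr1:89181144-89198942 and GBP5 chr1:89256189-89272860, all on the minus strand, and GBP6 spans chr1:89364059-89388160 on the plus strand. The spans of GBP2 and GBP7 overlap on the same strand in this annotation, and reads from the shared stretch cannot be assigned to either by position. The coding sequences are close, with 91.6% identity between GBP1 and GBP3, 86.5% between GBP4 and GBP7 and 82.4% between GBP1 and GBP2. Of the 50-base words of the main transcript, GBP7 shared 24.7% with other GBP transcripts, GBP1 14.0% and GBP3 4.18%, and GBP5 and GBP6 shared none. Within the last 500 bases of the transcript, nearest to where the tags start, no member shared such a word. The separate values of GBP1, GBP3 and GBP7 remain uncertain to the extent that reads lay outside that stretch, and the pseudogene GBP1P1 was not analysed here.

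Promoters from 250 bases before to 50 after the RefSeq start (GRCh38.p14) were matched for 5 members, GBP1, GBP3, GBP4, GBP6 and GBP7, and not for GBP2 and GBP5. They were searched on both strands for the core of the interferon-stimulated response element (ISRE), for the gamma-activated site (TTCNNNGAA) of IFN-γ-induced genes, and for an NF-kB site. The ISRE core stood in 3 of the 5 promoters, against 3.57% of the 35116 promoters in the RefSeq table. An exact match to the gamma-activated site pattern was found in 1, GBP3, against 7.66%, and to the NF-kB pattern in 1, GBP4, against 0.558%. Sites that deviate from these patterns were not searched for. A window without a match, such as that of GBP1 for the gamma-activated site, is therefore not shown to lack one. None of the motifs was found in the windows of GBP6 and GBP7, which says nothing of the factors. The stretches around the ISRE core are given for the members that hold it. The core has the same letters in GBP1 and GBP3. Any relation of these stretches to the ratios between the libraries was not tested. Each is written 5′ to 3′ on the minus strand, with matches to the 3 motifs, which do not overlap, in capitals.
GBP1, chr1:89065311-89065415: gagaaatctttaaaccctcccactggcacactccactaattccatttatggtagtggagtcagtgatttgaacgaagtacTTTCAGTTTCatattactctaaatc
GBP3, chr1:89022840-89022944: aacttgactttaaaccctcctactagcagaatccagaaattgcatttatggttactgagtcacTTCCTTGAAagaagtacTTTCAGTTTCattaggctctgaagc
GBP4, chr1:89198922-89199026: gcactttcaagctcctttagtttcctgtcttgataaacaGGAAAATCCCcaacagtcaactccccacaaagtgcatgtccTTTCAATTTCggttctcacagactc
The GBP1 and GBP3 stretches are identical at 77 of 105 bases (73.3%), whereas GBP4 matches GBP1 at 31 and GBP3 at 34. The core begins 127 bases upstream of the RefSeq start in GBP1, 4 bases upstream in GBP4 and 2 bases after the start in GBP3. The annotations differ in the start of GBP1 (base 89065208 in RefSeq and 89065360 in GENCODE) and of GBP3 (89022866 and 89022894). Counted from the GENCODE gene start, the core begins 25 bases after it in GBP1, 30 bases after it in GBP3 and 4 bases upstream in GBP4, so the gap in position between GBP1 and GBP3 depends on the annotation. A match of letters is a description of the sequence and was not tied to binding here.

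Within the epithelial range the 7 genes together stood at 30.3 CPM in CNT (2308 UMIs) and 1252 CPM in 3CK (87759 UMIs), 41.3-fold higher in 3CK (log2 ratio 5.37, 5.31 to 5.43). All 7 members were at least 2-fold higher and 6 at least 8-fold higher, where 8.48% and 1.82% of the 16809 genes with at least 1 CPM were. The median log2 ratio was 5.90 over the members and 0.01 over those genes. GBP5 had 51 UMIs in CNT and 38717 in 3CK, 0.670 CPM (0.499 to 0.880) against 552 CPM (547 to 558), a log2 ratio of 9.69 (9.29 to 10.11). GBP1 had 222 and 28565 UMIs, 2.91 CPM (2.54 to 3.32) against 407 CPM (403 to 412), a log2 ratio of 7.13 (6.94 to 7.32). GBP4 had 57 and 6324 UMIs, 0.748 CPM against 90.2 CPM, a log2 ratio of 6.91 (6.54 to 7.32). These members showed the highest ratios, whereas GBP2 and GBP3, the most abundant members in untreated epithelial cells, showed the lowest. GBP6 and GBP7 were scarcer still in CNT, at 0.171 and 0.0656 CPM, but their ratios lay between. The CNT level is also the denominator of each ratio. GBP2 stood at 9.70 CPM against 116 CPM, a log2 ratio of 3.58 (3.47 to 3.69). GBP3 stood at 16.0 CPM against 73.5 CPM, a log2 ratio of 2.20 (2.11 to 2.29). For GBP6 (13 and 619 UMIs) and GBP7 (5 and 275 UMIs) the log2 ratios were 5.69 (4.91 to 6.61) and 5.90 (4.66 to 7.54). With each cell given equal weight the epithelial log2 ratio was 4.96 for GBP4, 6.18 for GBP1, 6.79 for GBP6 and 5.75 for GBP7. GBP6 then ranked above GBP1, and GBP4 below GBP7.

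Within the mesenchymal range the same genes stood at 93.3 CPM in CNT (1833 UMIs) and 1438 CPM in 3CK (13111 UMIs), 15.4-fold higher in 3CK (log2 ratio 3.95, 3.88 to 4.02). All 7 members were at least 2-fold higher and 5 at least 8-fold higher, where 6.05% and 1.27% of 17353 genes were. Without GBP6, which held 1 and 11 UMIs, 4 of 6 were at least 8-fold higher. The median log2 ratio was 3.82 over the members and -0.21 over those genes. GBP1 was the most abundant member in 3CK, while in CNT GBP3 and GBP1 had overlapping intervals. GBP1 had 592 UMIs in CNT and 7390 in 3CK. This is 30.1 CPM (27.8 to 32.7) against 811 CPM (792 to 829), a log2 ratio of 4.75 (4.63 to 4.87). GBP5 had 49 and 2296 UMIs, 2.49 CPM (1.84 to 3.30) against 252 CPM (242 to 262), a log2 ratio of 6.66, again the highest of the family. GBP4 stood at 14.4 CPM (282 UMIs) against 158 CPM (1437 UMIs), a log2 ratio of 3.46 (3.27 to 3.65). GBP2 and GBP3 had the smallest ratios here too. GBP2 stood at 14.7 CPM against 104 CPM, a log2 ratio of 2.83 (2.64 to 3.03), and GBP3 at 31.1 CPM against 106 CPM, a log2 ratio of 1.77 (1.62 to 1.91). GBP7 held 9 and 59 UMIs, with a log2 ratio of 3.82 (2.80 to 5.02), and GBP6 a log2 ratio of 4.57 with an interval from 1.78 to 10.00. With equal weight per cell the GBP1 ratio was 5.39, and a stricter cell filter left GBP6 at 2.75.

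**Figure D1:**
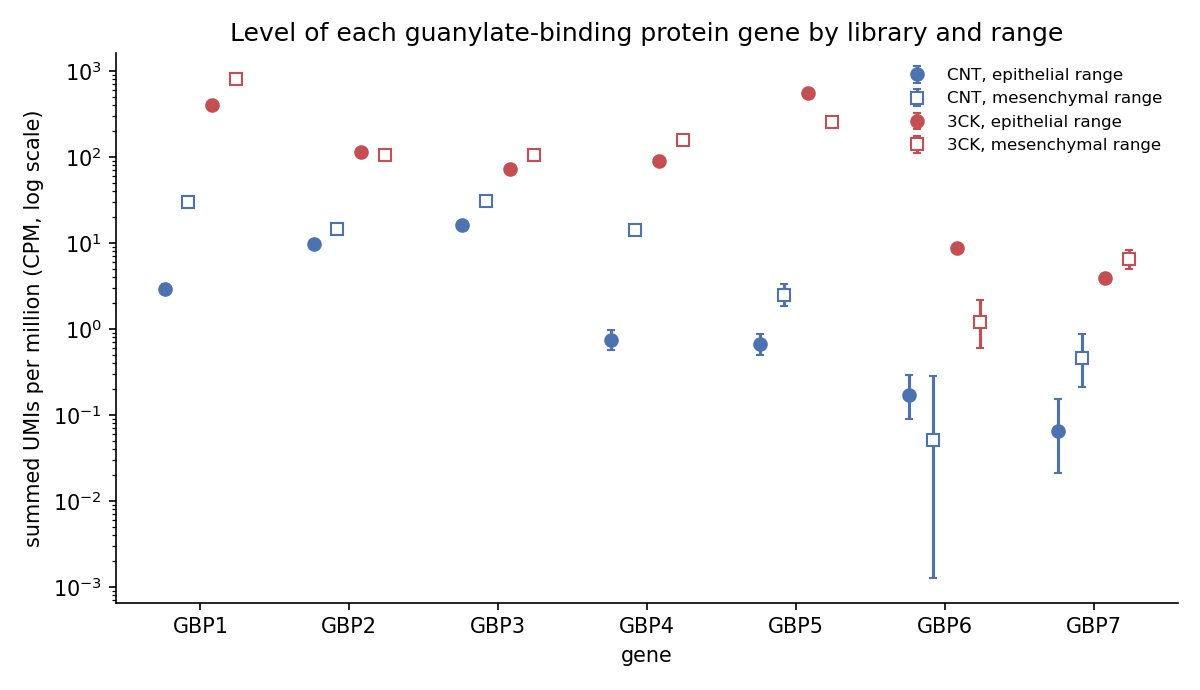
CPM (log axis) of each member in the epithelial range (filled circles) and the mesenchymal range (open squares) of CNT (blue) and 3CK (red), with exact Poisson intervals. Every 3CK point lies above the CNT point of the same range, and GBP5 and GBP6 are the members that lie clearly higher in the epithelial than in the mesenchymal range of 3CK (552 against 252 CPM, and 8.83 against 1.21 CPM).

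Leukocyte transcripts, which could add GBP molecules, were followed beside these values. PTPRC, the pan-leukocyte marker, had 32 CNT and 41 3CK UMIs, and 33 of the latter lay in the mesenchymal range, 28 of them in 1 cell. The 7 leukocyte markers summed to 93.8 CPM in the CNT and 114 CPM in the 3CK epithelial range. In the mesenchymal range they summed to 69.3 and 211 CPM. There TYROBP stood at 27.1 against 87.9 CPM (532 and 801 UMIs) and CD68 at 26.7 against 91.4 CPM. FCER1G stood at 1.68 against 15.7 CPM, PTPRC at 0.560 against 3.62 CPM and LYZ at 0.153 against 0.219 CPM. CD14 was slightly lower in 3CK (13.1 against 12.0 CPM), and CD3E had 1 UMI in CNT and 0 in 3CK. Without the 27 CNT and 21 3CK mesenchymal cells with TYROBP at 1 or more per 10000, the family's log2 ratio was 3.92 (3.84 to 3.99), beside 3.95 with them.

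The members differed in how far their ratio depended on the range. The log2 ratio of 3CK over CNT was higher in the epithelial than in the mesenchymal range by 3.46 for GBP4 (3.04 to 3.88), by 3.03 for GBP5 (2.46 to 3.60) and by 2.38 for GBP1 (2.15 to 2.60). The difference was 0.74 for GBP2 (0.52 to 0.96), 0.43 for GBP3 (0.26 to 0.60) and 2.08 for GBP7 (0.45 to 3.71). For GBP6 it was 1.13 with an interval from -1.93 to 4.18, so a difference was not detectable at this depth. With each cell at equal weight the difference was 3.44 for GBP5, 1.26 for GBP4 and 0.79 for GBP1, and those of GBP2 and GBP3 were 0.34 and 0.39. GBP4 then no longer had a larger difference than GBP5. GBP6 (2.16) and GBP7 (1.58), which rest on few UMIs, then lay above both GBP4 and GBP1.

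**Figure D2:**
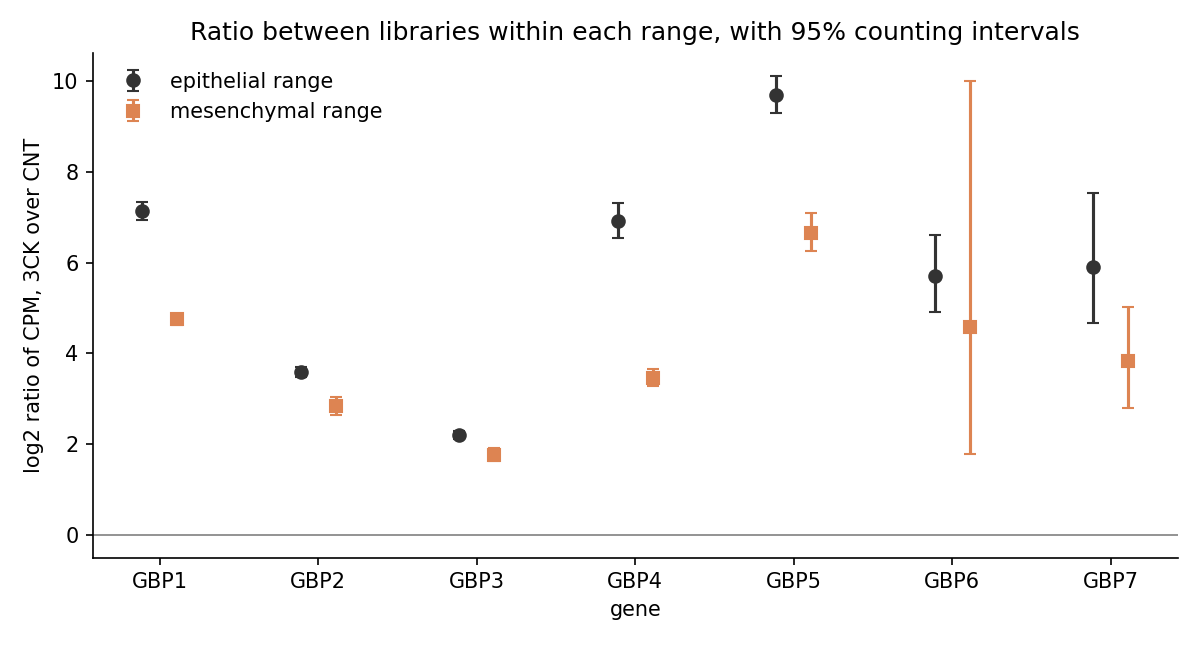
Log2 ratio of CPM, 3CK over CNT, for each member within the epithelial range (dark circles) and the mesenchymal range (orange squares), with 95% counting intervals. All points lie above 0, and the intervals of the ranges are apart for GBP1, GBP2, GBP3, GBP4 and GBP5 and overlap for GBP6 and GBP7.

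In CNT the levels themselves were mostly higher in the mesenchymal range. GBP4 was 19.2-fold higher there (log2 ratio of epithelial over mesenchymal range -4.26, -4.70 to -3.85), GBP1 10.3-fold higher (-3.37, -3.60 to -3.14) and GBP5 3.72-fold higher (-1.90, -2.49 to -1.30). These 3 of the 5 members with at least 1 CPM were at least 2-fold higher in the mesenchymal range, as were 26.1% of the 18033 genes of that size, and none was at least 2-fold higher in the epithelial range, where 15.1% were. GBP3 (-0.96, -1.10 to -0.82) and GBP2 (-0.60, -0.79 to -0.39) differed less. Summed over the family, the mesenchymal range held 3.08 times the epithelial level.

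The low epithelial values of CNT were read against genes that epithelial cells should lack. In the CNT epithelial range DCN, LUM, COL5A1, COL6A3 and PDGFRA, which mark mesenchymal cells and were not part of the rule, stood at 3.16% to 10.1% of their mesenchymal level. GBP4 stood at 5.21% and GBP1 at 9.67%, within that span, and the part of free RNA in these levels was not tested. GBP5 stood at 26.8%, GBP2 at 66.2% and GBP3 at 51.5%, above that span. In epithelial cells with collagens under 1 per 10000 the log2 ratio of 3CK over CNT was 8.38 for GBP4 (7.65 to 9.21), above the 6.91 of the whole range, but 7.40 for GBP1 (7.15 to 7.65), close to its 7.13.

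In 3CK the ranges came close to each other in the summed family, at 1252 CPM in the epithelial and 1438 CPM in the mesenchymal range (log2 ratio of epithelial over mesenchymal -0.20, -0.23 to -0.17). The value was negative under every alternative run, and closest to 0 with TMM scaling factors (-0.02, -0.05 to 0.0032), where the interval includes 0. The members did not share that near-balance. GBP5 was 2.19-fold higher in the epithelial range (log2 ratio 1.13, 1.07 to 1.19) and GBP6 7.32-fold higher (2.87, 2.02 to 3.88), and these 2 of 7 members were at least 2-fold higher there, as were 16.8% of 17177 genes. GBP1 was 1.99-fold higher in the mesenchymal range (-0.99, -1.03 to -0.96), GBP4 1.75-fold (-0.81, -0.89 to -0.72), GBP7 1.65-fold (-0.72, -1.13 to -0.29) and GBP3 1.44-fold (-0.53, -0.63 to -0.43), and none reached 2-fold, where 19% of genes did. GBP2 was close to level (0.15, 0.05 to 0.25), and TMM factors, which add 0.18 to each of these values, left the signs of the members as they were.

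Epithelial genes outside the rule gave the reference for the mesenchymal range of 3CK. TTR stood there at 1.22%, APOA1 at 1.81% and CDH1 at 3.01% of the epithelial level, CLDN7 at 4.20% and ELF3 at 33.2%. GBP5 stood at 45.6%, above all of them, and GBP6, from 11 UMIs, at 13.7%, above 4 of the 5 and below ELF3. The part of free RNA in these levels was not tested. The keratin KRT18 was abundant in both ranges of 3CK, at 10938 CPM in the epithelial and 6968 CPM in the mesenchymal range.

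The make-up of the family differed between the libraries. In CNT, GBP3 gave 44.2% of all GBP UMIs (42.7 to 45.7), GBP2 24.8%, GBP1 19.3% and GBP4 8.41%. In 3CK, GBP5 gave 40.4% (40.1 to 40.7), GBP1 36.1%, GBP2 8.92%, GBP4 7.64% and GBP3 6.04%. GBP1 and GBP5 together thus made up 21.8% in CNT and 76.4% in 3CK. The share of GBP6 was 0.417% (0.247 to 0.659) and 0.621% (0.577 to 0.668), and that of GBP7 0.348% and 0.346%.

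The leading member of 3CK depended on the range. In the epithelial range of 3CK, GBP5 gave 44.1% (43.8 to 44.4) and GBP1 32.5% (32.2 to 32.9). In the mesenchymal range of 3CK, GBP1 gave 56.4% (55.5 to 57.2) and GBP5 17.5% (16.9 to 18.2). In CNT the epithelial range was led by GBP3, with 52.9% (50.8 to 55.0), and in the mesenchymal range GBP3 (33.4%, 31.2 to 35.6) and GBP1 (32.3%, 30.2 to 34.5) had overlapping intervals.

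**Figure D3:**
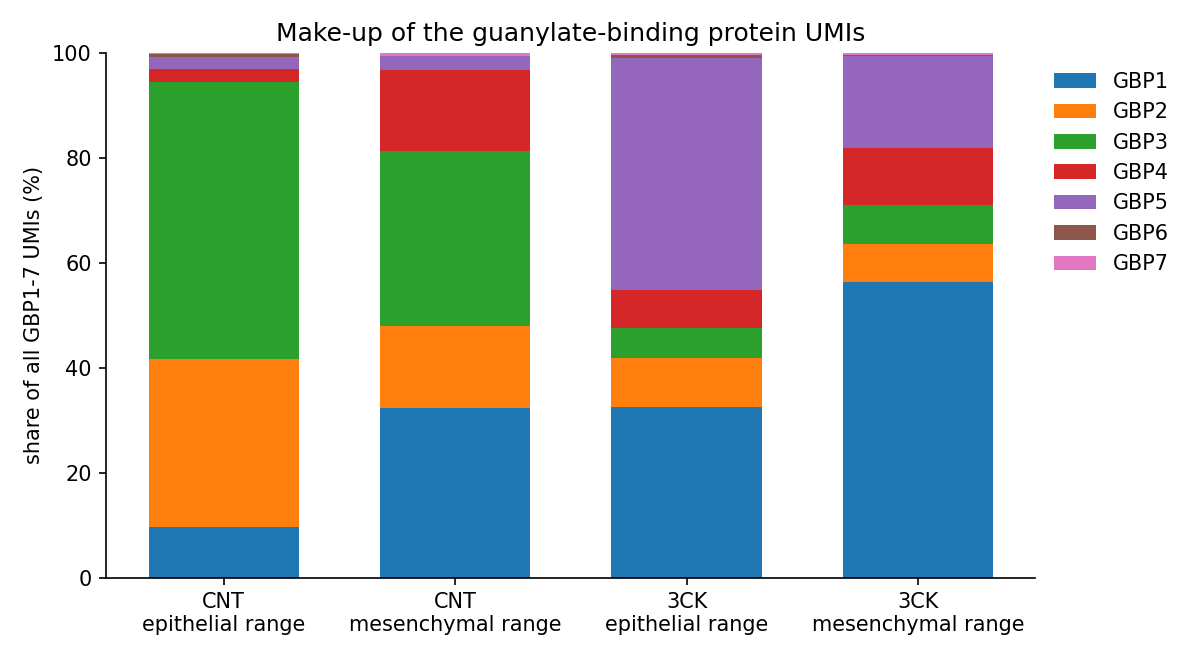
Share of all GBP1 to GBP7 UMIs (%) that each member gave in the epithelial and mesenchymal ranges of CNT and 3CK. GBP3 fills the largest part of the CNT epithelial bar (52.9%), GBP5 of the 3CK epithelial bar (44.1%) and GBP1 of the 3CK mesenchymal bar (56.4%).

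Ratios between paralogs gave the same picture without any scaling by depth. There were 0.779 GBP1 UMIs per GBP2 UMI in CNT (0.711 to 0.854) and 4.04 in 3CK (3.95 to 4.13). In the epithelial range this ratio was 0.300 in CNT and 3.52 in 3CK, and in the mesenchymal range 2.06 and 7.76. GBP1 thus exceeded GBP2 in both ranges of 3CK, but in CNT only in the mesenchymal range.

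Per GBP5 UMI there were 7.72 GBP1 UMIs in CNT (6.31 to 9.53) and 0.893 in 3CK (0.881 to 0.905). In 3CK the ratio was 0.738 in the epithelial range (0.727 to 0.749) and 3.22 in the mesenchymal range (3.07 to 3.37), so the order of these members turned between the ranges. Per GBP4 UMI there were 2.30 GBP1 UMIs in CNT (2.03 to 2.61) and 4.72 in 3CK (4.61 to 4.83). The ratio of GBP4 to GBP7, the most alike pair after GBP1 and GBP3 in coding sequence, was 24.2 in CNT (14.5 to 43.7) and 22.1 in 3CK (20.0 to 24.5), with overlapping intervals.

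Shares of cells were compared at an equal depth of 5000 UMIs per cell, and the 943 CNT and 335 3CK cells below that depth were not used. GBP5 was seen in 0.389% of 1544 CNT cells and 73.1% of 1063 3CK cells, or 2.81% and 86.3% of all kept cells without thinning. GBP1 was seen in 3.17% and 73.0% (10.7% and 85.9% unthinned). GBP2 was seen in 3.63% and 40.8% (16.0% and 72.8%), and GBP3 in 7.90% and 27.5% (28.8% and 71.6%). GBP4 was seen in 1.94% and 31.7% (7.88% and 68.9%). GBP6 was seen in 1 CNT cell and 3.48% of 3CK cells (0.643% and 25.3%), and GBP7 in 3 CNT cells and 2.35% (0.563% and 18.2%). Every member was thus seen in a larger share of 3CK cells at equal depth.

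At least 1 of the 7 genes was seen in 14.9% of thinned CNT cells (13.2 to 16.8) and 92.8% of thinned 3CK cells (91.0 to 94.2), and at least 3 in 0.389% and 49.7%. In the epithelial range at least 1 member was seen in 11.1% of 1062 CNT and 93.6% of 776 3CK cells, and in the mesenchymal range in 30.3% of 320 and 90.7% of 107. For comparison, single genes of the other range were seen in widely differing shares of cells. The 5 mesenchymal genes used above were seen in 2.07% (COL6A3) to 28.2% (LUM) of CNT and in 0.773% (COL6A3) to 9.15% (LUM) of 3CK epithelial cells. The 5 epithelial genes were seen in 3.75% (CDH1) to 96.9% (TTR) of CNT and in 3.74% (CDH1) to 68.2% (TTR) of 3CK mesenchymal cells, with CLDN7 at 17.8% and APOA1 at 36.4% in the latter. The GBP shares of CNT lay within these spans, and those of 3CK lay above them. The mesenchymal span ends at TTR, which stood at 64857 CPM in the CNT epithelial range. A share for any of 7 genes is also set beside shares of single genes. The spans therefore cannot decide how far the CNT shares reflect expression, and they are not read as expression in that share of cells. The part of free RNA was not tested. Before thinning, the median depths of these cells were 67290 and 91187 UMIs in the epithelial range and 52742 and 75388 in the mesenchymal range.

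**Figure D4:**
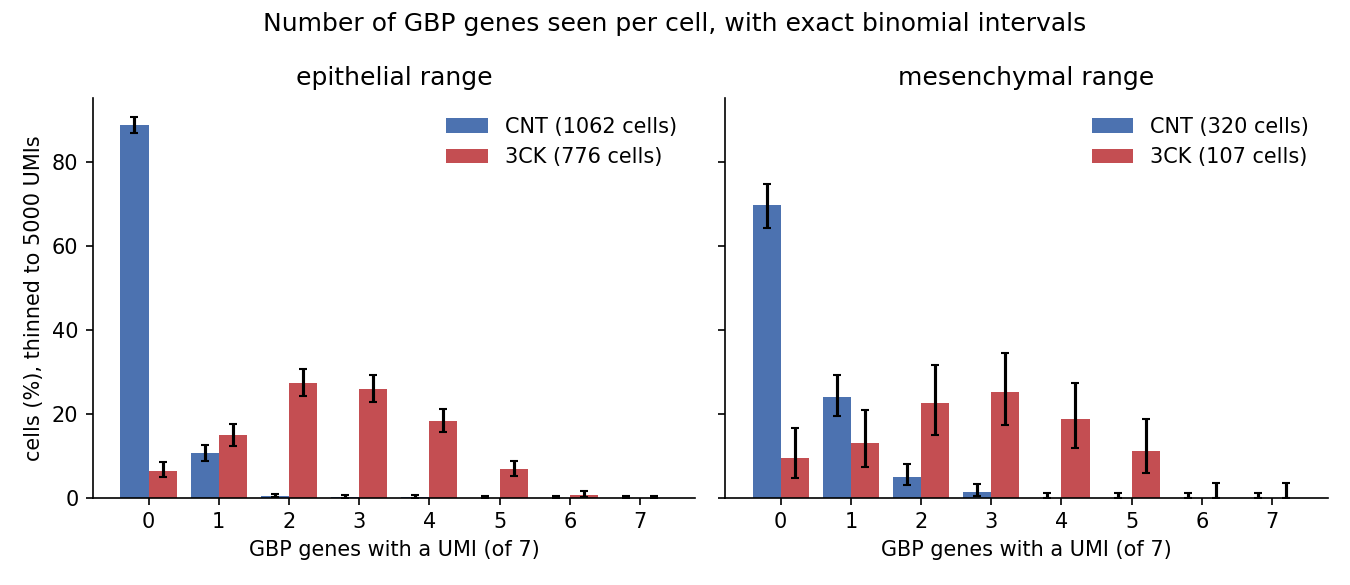
Share of cells (%) by the number of GBP genes with a UMI, after thinning to 5000 UMIs, in the epithelial and mesenchymal ranges of CNT (blue) and 3CK (red), with exact binomial intervals. Most CNT cells show none (88.9% and 69.7%), whereas in 3CK 51.4% of epithelial and 55.1% of mesenchymal cells show at least 3.

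GBP1 and GBP5 were often seen in the same cells of 3CK, where each was seen in most cells, so many hold both whether or not they are related. In the epithelial range 60.4% of thinned cells held both, 12.6% GBP1 alone and 15.3% GBP5 alone. In the mesenchymal range 51.4% held both, 33.6% GBP1 alone and 2.80% GBP5 alone. In CNT, where GBP1 was seen in 49 and GBP5 in 6 of the 1544 thinned cells, none held both, which such low numbers leave uninformative.

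In cells with at least 10000 UMIs, the family stood at a median of 10.8 UMIs per 10000 in 3CK, with 3.10 at the 10th and 24.1 at the 90th percentile, and was absent from 2 of 995 cells. In CNT the median was 0.163, and 592 of 1458 cells held no GBP UMI. The 99th percentile of all these CNT cells together was 3.38, and 88.7% of the 3CK cells lay above it (86.6 to 90.6). Above the same limit lay 88.6% in the epithelial and 88.7% in the mesenchymal range. The limit was not set for each range. The CNT 90th percentile was 0.776 in the epithelial and 2.14 in the mesenchymal range, so these shares do not compare each range with its own CNT cells. GBP transcripts were thus spread over most 3CK cells of both ranges.

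In CNT some members were concentrated in few cells. A single CNT epithelial cell held 167 of the 739 GBP2 UMIs, and the 10 highest cells held 44.9% of them, without which GBP2 stood at 5.43 CPM. The 10 highest of 1660 cells held 37.4% of the epithelial GBP1 UMIs in CNT, against 6.40% in the 3CK epithelial range. GBP3, which gave most of the CNT epithelial molecules, was spread more evenly, with 11.1% in its 10 highest cells. For the summed family that share was 19.8% in the epithelial and 15.7% in the mesenchymal range of CNT. In the mesenchymal range of 3CK, with 124 cells, the 10 highest held 32.2% of the GBP1 UMIs, and without them GBP1 stood at 645 CPM.

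Cell features moved with the levels within the ranges, along limits that were chosen after the data were seen. Epithelial cells with the hepatic transcript TTR at 500 or more per 10000 had a family level of 18.2 CPM in CNT (620 cells) and 546 CPM in 3CK (82 cells), against 45.2 CPM (1040 cells) and 1318 CPM (934 cells) in the others. The median depths were 67915 and 4501 UMIs in CNT, but close to each other in 3CK, at 78360 and 71537 UMIs. Cells with the enterocyte transcripts FABP2, RBP2 and APOA4 at 20 or more per 10000 had family levels of 43.3 (CNT) and 1160 CPM (3CK), against 23.7 and 1277 CPM in the others. Their median depth was 20474.5 UMIs against 47204 in CNT, and 70449 against 73079 in 3CK. In CNT cells with the proliferation transcripts MKI67, TOP2A and CENPF at 5 or more per 10000 the family was lower in the epithelial range (10.9 against 30.5 CPM, from 8 GBP UMIs) and level in the mesenchymal range (93.4 against 93.3 CPM). In the mesenchymal range of 3CK the 11 such cells stood at 2511 CPM, against 1303 CPM in the other 113, and in the epithelial range the 24 such cells stood at 1406 CPM, against 1250 CPM. In the epithelial range these cells were shallow, with a median of 1417 UMIs against 41408 in CNT, and 1361.5 against 73230.5 in 3CK. At such a depth a single UMI can pass the limit, so they are not read as cycling cells. In the mesenchymal range the medians were 23511 against 23390 in CNT and 86271 against 60764 in 3CK. The part of these features in the differences between CNT and 3CK was not tested.

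Across single cells of 3CK the correlations between members were at most moderate. They were computed on log counts after thinning to 10000 UMIs, and cells of 1 library share its depth and free RNA, so they are descriptions. Thinned epithelial cells held on average 3.94 UMIs of GBP1 and 5.38 of GBP5, but 1.09 of GBP2, 0.767 of GBP3 and 0.951 of GBP4. Such sparse counts lower a correlation, so low values do not show that members were loosely related. The highest was between GBP1 and GBP5, with r = 0.46 over 730 epithelial and r = 0.57 over 106 mesenchymal cells. GBP1 and GBP2 had r = 0.32 and 0.42, and GBP1 and GBP4 r = 0.29 and 0.45. GBP2 and GBP3 had r = 0.11 and 0.09, weak values that in such sparse counts are no finding.

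By the rule of likeness, which took the 5 highest correlations among 3226 genes with at least 50 CPM, the epithelial pattern of GBP5 was nearest to WARS (r = 0.51), ICAM1 (0.47), GBP1 (0.46), IDO1 (0.46) and CXCL11 (0.45). That of GBP1 was nearest to GBP5, LAP3 (0.43), IFIT3 (0.41), ICAM1 (0.39) and WARS (0.39). For GBP4 the nearest genes were TNFSF10 (0.36), CXCL11 (0.32), GBP5 (0.32), IFIT3 (0.30) and CXCL10 (0.29). GBP2 was nearest to GBP1, SOD2 (0.26), GBP5 (0.24) and BIRC3 (0.23), and GBP3 to HLA-E (0.25), GBP1 (0.22), SAMD9 (0.21) and IFI6 (0.21). In the mesenchymal range GBP1 was nearest to CXCL10 (0.57), GBP5, IDO1 (0.56), TAP1 (0.50) and IRF1 (0.50). GBP5 was nearest there to GBP1, IDO1 (0.54), IFIT3 (0.46), EPSTI1 (0.44) and TRIM22 (0.44). GBP4 was nearest to TRAFD1 (0.47), GBP1 (0.45), CXCL10 (0.40), DYNC1LI2 (0.39) and ICAM1 (0.39). The mesenchymal neighbours of GBP2 were GBP1 (0.42), CKAP4 (0.41), SOD2 (0.36), C1S (0.34) and SKA2 (0.33), and those of GBP3 were PGK1 (0.34), GSPT1 (0.32), PNRC1 (0.30), GBP1 (0.30) and SYF2 (0.30), weak values over 106 cells.

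The genes around the family were described by lists. Members with at least 1 CPM were counted at a log2 ratio of at least 1 or at most -1 over all kept cells. Of all genes with at least 1 CPM, 6.96% were at least 2-fold higher in 3CK, and their median log2 ratio was -0.05. The share of all genes at least 2-fold lower was not computed, so the counts of lower genes have no such reference. Of the 15 genes of IFN-γ receptor signalling, 12 were at least 2-fold higher in 3CK and none at least 2-fold lower, with a median log2 ratio of 1.82. BATF2, an IFN-γ-induced transcription factor, had the highest ratio, with 76 and 11599 UMIs (log2 ratio 7.40), and IFNGR2, the signalling receptor chain, the lowest (46.6 against 59.8 CPM, 0.36). The transcription factor IRF1 (23.3 against 376 CPM, 4.01) and the ligand-binding receptor chain IFNGR1 (58.9 against 209 CPM, 1.82) were among the 3 most abundant in 3CK. By range, IFNGR1 stood at 63.9 against 243 CPM in the epithelial range and 37.8 against 52.0 CPM in the mesenchymal range. In the latter 8 of the 15 genes were at least 2-fold higher, as were 6.05% of the 17353 genes with at least 1 CPM there.

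Of the 9 NF-kB subunits and inhibitors, 4 were at least 2-fold higher and none lower, with a median log2 ratio of 0.93. All 4 counteract or modify NF-kB or act upstream of it: TNFAIP3 (13.8 against 69.3 CPM, 2.32), IKBKE (7.59 against 30.1 CPM, 1.99), NFKBIA (47.7 against 159 CPM, 1.74) and NFKBIZ (38.6 against 86.1 CPM, 1.16). The lowest ratio was that of the subunit REL (8.38 against 11.6 CPM, 0.47). IKBKE lay outside the rule for names and was added after its value was seen.

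Of the 17 counted partners at bacteria and in pyroptosis, 12 were at least 2-fold higher and none lower, with a median log2 ratio of 1.63. APOL1, a lipid-binding protein whose relative APOL3 lyses bacteria that the GBP coat has opened, was highest (3.74 against 191 CPM, 5.67), and the pore protein GSDME lowest (25.3 against 19.2 CPM, -0.40). RNF213, a ubiquitin ligase that marks bacterial lipopolysaccharide, was the most abundant (48.5 against 592 CPM, 3.61), followed by APOL1 and the inflammasome adaptor PYCARD (67.4 against 179 CPM, 1.41).

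The enzymes that prenylate and process the CaaX box differed little. None of the 6 reached 2-fold in either direction, and the median log2 ratio was -0.03. RCE1, the CaaX protease, was highest (18.4 against 22.3 CPM, 0.28) and ZMPSTE24 lowest (46.9 against 39.1 CPM, -0.26). FNTA, the subunit that the prenyltransferases share, stood at 61.9 against 64.1 CPM (0.05), and the methyltransferase ICMT at 44.2 against 42.7 CPM (-0.05).

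The list of GBP regulators held 16 genes, among them family relatives that are not all known to act on GBPs. Of these 16 genes, 2 were at least 2-fold higher and none at least 2-fold lower, with a median log2 ratio of 0.25. The kinase PIM2 was highest (1.83 against 4.78 CPM, 1.39), and GABARAPL2, a small ubiquitin-like protein of the autophagy machinery, lowest (142 against 100.0 CPM, -0.51). The 14-3-3 proteins YWHAZ (325 against 420 CPM, 0.37), YWHAB (296 against 389 CPM, 0.39) and YWHAE (230 against 239 CPM, 0.06) were the most abundant.

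Other GTPases related to the family showed no common pattern. Of 13 counted genes of the dynamin superfamily and the immunity-related GTPases, 2 were at least 2-fold higher and 1 lower, with a median log2 ratio of 0.20. The antiviral MX1 was highest (11.7 against 208 CPM, 4.15) and most abundant, and IRGM, the autophagy-linked immunity-related GTPase, was lowest (126 against 32 UMIs, -1.83). DNM2 (52.5 against 70.8 CPM, 0.43) and DNM1L (31.1 against 44.5 CPM, 0.52) were next in abundance.

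All 19 of the other interferon-induced genes used for comparison were at least 2-fold higher in 3CK, with a median log2 ratio of 4.92 beside 4.89 for the GBP genes. The chemokine CXCL10 was highest (log2 ratio 11.79) and B2M, the light chain of HLA class I, lowest (1433 against 9349 CPM, 2.71), with HLA-B (336 against 5066 CPM, 3.92) and the ubiquitin-like ISG15 (400.0 against 4818 CPM, 3.59) next to B2M in abundance. The GBP ratios, from 2.03 to 8.91, lay in the same span apart from GBP3, which was below its lowest member.

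**Figure D5:**
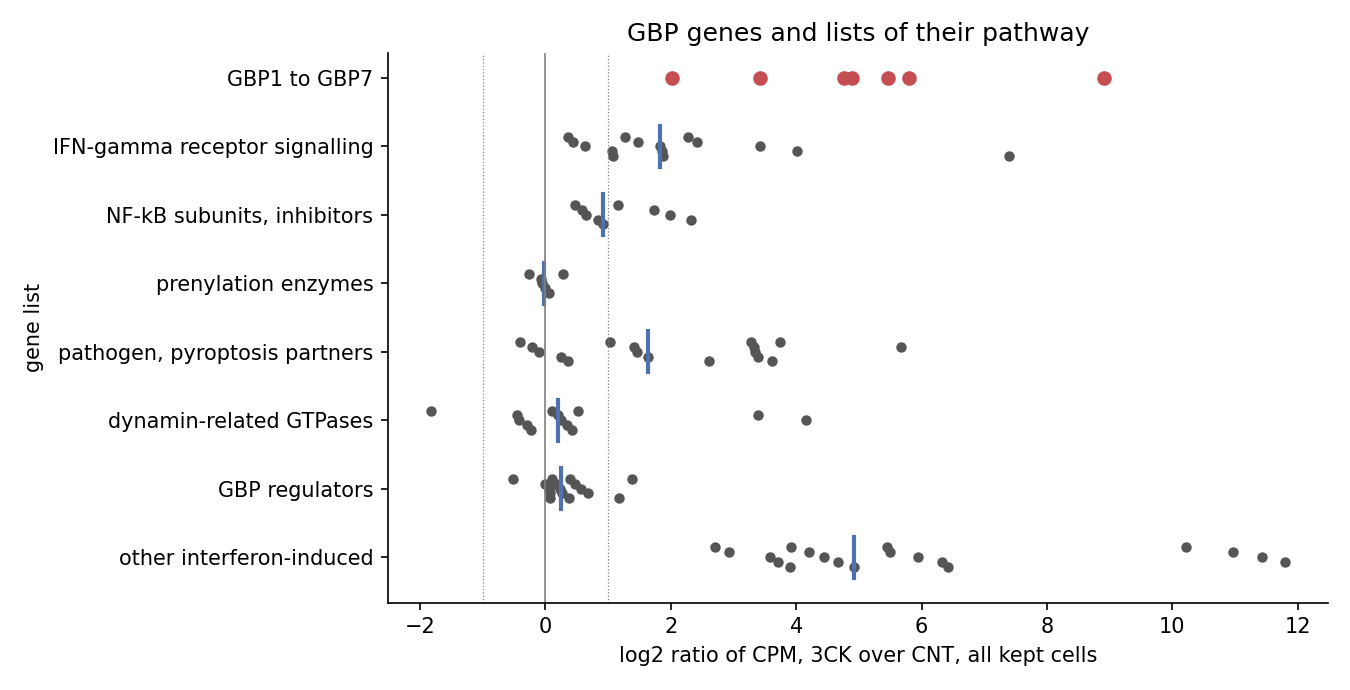
Log2 ratio of CPM, 3CK over CNT, over all kept cells for the 7 GBP genes (red) and for each gene of the lists of their pathway (grey), with the list median as a blue bar and dotted lines at 2-fold. The prenylation enzymes lie close to 0 (median -0.03), and the other interferon-induced genes (median 4.92) span the range of the GBP genes except GBP3, which lies below them (2.03).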

How the data were processed

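The deposited matrices hold raw UMI counts for every gene in every barcode. They come from Cell Ranger 7.1.0 and GRCh38, per the submitters' processing notes. The annotation version and the use of intronic reads were not stated there. Barcodes with at least 500 genes and at most 20% mitochondrial UMIs were kept, and the highest Scrublet scores (scanpy 1.11.5, Python 3.11.15) were removed at 0.8% per 1000 barcodes. UMIs were summed per library and range and scaled to CPM. Intervals at the 95% level are exact Poisson for sums and Clopper-Pearson for shares of cells. For ratios they are derived from a binomial interval (exact) for the part of the pooled UMIs that lay in the numerator. For differences of log2 ratios between the ranges they are normal approximations. These are rough at low counts, such as those of GBP6 and GBP7. For thinned shares, cells were thinned without replacement. The ratio script was tested on simulated counts. All 7 members are named in every range; of each gene list the highest and lowest ratio and the 3 members of highest CPM in 3CK are named, apart from genes that are not reported here. The members, ranges and gene lists were chosen with earlier results of these data known. Each promoter was taken as RefSeq gives it, and gene spans come from GENCODE. Alternatives were other cell filters, doublet settings, scalings (TMM in edgeR 4.0.16), equal weight per cell and other range limits.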

Additional observations from a re-analysis of the deposited data

Results flagged for a closer look

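GBP transcripts were also present in barcodes that the cell filter had removed, and there too they were higher in 3CK than in CNT. In removed barcodes with under 500 genes the family stood at 466 CPM in 3CK (52 barcodes, 33 GBP UMIs, 321 to 655) and 41.7 CPM in CNT (412 barcodes, 16 UMIs). In barcodes removed for over 20% mitochondrial UMIs it stood at 1060 CPM in 3CK (175 barcodes, 1006 to 1117) and 32.0 CPM in CNT (306 barcodes). In barcodes removed as doublets it stood at 967 CPM in 3CK (16 barcodes, 920 to 1017) and 48.1 CPM in CNT (52 barcodes). GBP1 and GBP5 led in all 3 classes of 3CK, at 170 and 127, 358 and 425, and 359 and 325 CPM. These barcodes entered no comparison above.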

How the results depend on the processing

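No paired analysis was possible because each group is 1 library. All log2 ratios of 3CK over CNT kept their direction under the alternatives run: 49 single-member values over all cells (lowest 1.93), 63 in the epithelial range (lowest 2.08) and 63 in the mesenchymal range (lowest 1.72) stayed above 1. The family's log2 ratio over all cells (4.90) was 4.99 with TMM factors, 4.80 with a total without mitochondrial, ribosomal and the 50 most abundant genes, and 4.78 with each cell at equal weight. In the epithelial range (5.37) it was 5.25 with the reduced total, which moves every epithelial ratio by -0.12, and 5.06 with equal weight. In the mesenchymal range (3.95) it was 4.13 with TMM factors, which add 0.18 there, 4.27 with equal weight and 3.84 with stricter limits. The epithelial over mesenchymal ratio in 3CK (-0.20) was -0.16 with a stricter cell filter, -0.023 with TMM factors, -0.25 with stricter limits and -0.17 without cells carrying TYROBP. The ratio of GBP1 to GBP2 in 3CK stayed from 4.01 to 4.08. Moves over 1.5-fold were those of GBP4 in the epithelial range (6.91, but 4.96 with equal weight and 8.38 without collagen cells), GBP1 (7.13 and 6.18 in the epithelial, 4.75 and 5.39 in the mesenchymal range with equal weight) and GBP6 (5.47 and 6.45 over all cells, 5.69 and 6.79 in the epithelial range with equal weight, and in the mesenchymal range 4.57, 2.75 with a stricter filter and 3.55 with stricter limits). The cause was not tested. The limits without collagen or TYROBP cells were chosen after seeing the data. Depth limits GBP6 and GBP7, with under 20 UMIs each in CNT.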
